A study of Mus musculus with 2 samples.

Results

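The mitotic wells of a reporter sort were 50 of 590 kept wells, 26 of 300 in the DMSO plate and 24 of 290 in the ISX-9 plate. A well was meant to hold 1 cell sorted as Ngn3-RFP-positive from organoids of mouse small intestine (jejunum and ileum, genotype Neurog3-RFP hom), read by the plate method SORT-seq. One plate of 384 wells came from organoids kept for 48 h with the solvent DMSO, and 1 plate from organoids kept for 48 h with ISX-9, the small molecule isoxazole 9, which is known to push neural progenitors toward neurons. All cells carry the homozygous reporter at Neurog3 and all were sorted as reporter-positive, so neither plate holds a group sorted as reporter-negative. The reporter level of single wells was not read here. Members were chosen by measured values: a summed level of Mki67, Top2a, Cdk1, Ccnb1, Ccnb2, Birc5, Ube2c and Cdc20 of at least 1000 CPM (the usual counts-per-megaread scale, over the nuclear reads of the well), with Muc2 under 2000, Neurog3 under 3000 and Tph1 under 500 CPM. These 11 genes are therefore described and not tested. Each treatment has 1 plate, so no difference has a replicate, wells cannot stand in for one, and no p-value is given.

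Mitosis needs cyclin-dependent kinase 1 with cyclin A and cyclin B, a spindle of tubulin and motor proteins, kinetochores that hold the chromosomes, and the anaphase-promoting complex that ends the phase. In the intestinal crypt, Lgr5-positive stem cells and their early daughters divide. Notch signalling through Hes1 restrains Atoh1, the factor of the secretory lineages, and within these Neurog3 starts the enteroendocrine lineage, whose cells leave the cell cycle as they mature. The wells were therefore read for which genes of these lineages a dividing, reporter-positive cell held.

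The comparison was made with the 126 DMSO and 89 ISX-9 wells that met the same limits on Muc2, Neurog3 and Tph1 but had a mitotic sum under 1000 CPM, called comparison wells here. The plates held 21398070 and 17062599 reads, and the same 384 well numbers were used in both. Mitotic wells were deeper: their nuclear reads had a lowest, median and highest value of 14019, 67669.5 and 489134 in DMSO and of 2021, 72966.5 and 326339 in ISX-9, against medians of 23803 and 20027 in comparison wells. They had a median of 4635 and 5648.5 genes with a read, against 2276 and 2725. Per read of the ERCC spike-in the median was 26.5 and 31.7 nuclear reads in mitotic wells and 10.5 and 9.07 in comparison wells. More RNA per cell, more than 1 cell in a well and better capture cannot be told apart from these values. Medians of the mitochondrial share of reads were 25.5% and 29.9% in mitotic wells and 26.2% and 24.3% in comparison wells. Rn45s, a ribosomal RNA precursor, had medians of 119257 and 54210 CPM in mitotic wells and of 151477 and 70183 CPM in comparison wells. With Rn45s left out of the totals the shares of mitotic wells below were 9.67% in DMSO and 8.62% in ISX-9, and with every well thinned to 2000 reads 9% and 8.28%. The mitotic sum alone, without the limits, was reached by 11.7% and 12.4% of kept wells at full depth. After thinning it was reached by 15% and 15.5%, so the like shares of members do not show that the choice of wells is independent of depth. Reads of this protocol are not independent molecules, so the 95% Poisson intervals given with pooled levels reflect counting error alone.

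Mitotic wells made up 8.67% of kept DMSO wells (95% Clopper-Pearson interval 5.74 to 12.4) and 8.28% of kept ISX-9 wells (5.37 to 12.1). The interval of each share holds the value of the other. These intervals cover the drawing of wells from 1 plate, not the treatment, and a difference between the plates was not tested. The members just inside the threshold had sums of 1029, 1053 and 1069 CPM in DMSO and 1026, 1224 and 1257 CPM in ISX-9. The comparison wells just outside had 927, 919 and 871 CPM and 965, 848 and 729 CPM. Over members, the sum had a lowest, median and highest value of 1029, 2354 and 6656 CPM in DMSO and of 1026, 2587 and 4989 CPM in ISX-9. At least 7 of the 8 mitotic genes had a read in 19 of 26 DMSO members and 12 of 24 ISX-9 members. The sum rested on 1 gene in 4 ISX-9 members, which held 2021 to 13380 reads, and in no DMSO member, where the smallest number was 3 genes. A further 9 DMSO and 12 ISX-9 wells reached 1000 CPM but were past a limit. In DMSO these were 7 wells with Muc2 and 2 with Tph1 past the limit, and in ISX-9 there were 2 for Muc2, 3 for Neurog3 and 8 for Tph1, with wells counted under each limit they passed.

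Among the genes of the rule, Mki67, the proliferation antigen, was read in 26 of 26 DMSO and 20 of 24 ISX-9 members. Its per-well lowest, median and highest levels were 64.8, 427 and 805 CPM in DMSO and 0, 368 and 1252 CPM in ISX-9. Top2a, the topoisomerase that untangles chromosomes, was read in 26 and 20 members, with 13.5, 596 and 1630 CPM and with 0, 577 and 2104 CPM. Cdk1, the mitotic kinase, was read in 21 and 18 members, Ccnb1, its cyclin B1 partner, in 19 and 15, and Ube2c, the ubiquitin-conjugating enzyme of the anaphase-promoting complex, in 25 and 18. Cdc20, its activator, was read in 14 members of each plate, and Ccnb2, cyclin B2, in 20 and 13. Each of Mki67, Top2a, Cdk1, Ccnb1 and Ube2c, the markers of the label, was thus read in most members of both plates.

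The label was also checked with 48 G2/M genes that the rule did not use. Their summed level per well had a lowest, median and highest value of 2450, 6799 and 15002 CPM in DMSO members and of 0, 6730 and 14995 CPM in ISX-9 members. In comparison wells the medians were 461 and 607 CPM and the highest wells 4373 and 3137 CPM. A sum of at least 5000 CPM was found in 19 of 26 and 18 of 24 members and in 0 of 126 and 0 of 89 comparison wells, so the classes overlapped only at the lower end. Of the 3 ISX-9 members under 2000 CPM, at 0, 598 and 1330 CPM, the first 2 had a read of 1 gene of the rule and the last, with 102982 reads, of 4 genes. Of these genes, 46 had a mean of at least 10 CPM over the 4 groups of wells, and 45 stood at least 2-fold higher in mitotic than in comparison wells in both plates. Over all 8939 genes entered, 2.14% did so. The ratio here and below is the log2 ratio of pooled (CPM + 5), which understates low genes. The list's median was 2.68 in DMSO and 2.33 in ISX-9, against 0.07 and -0.00 over all genes. These genes belong to the same programme as the genes that chose the wells, so their level is a description of the choice and not separate evidence.

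**Figure D1:**
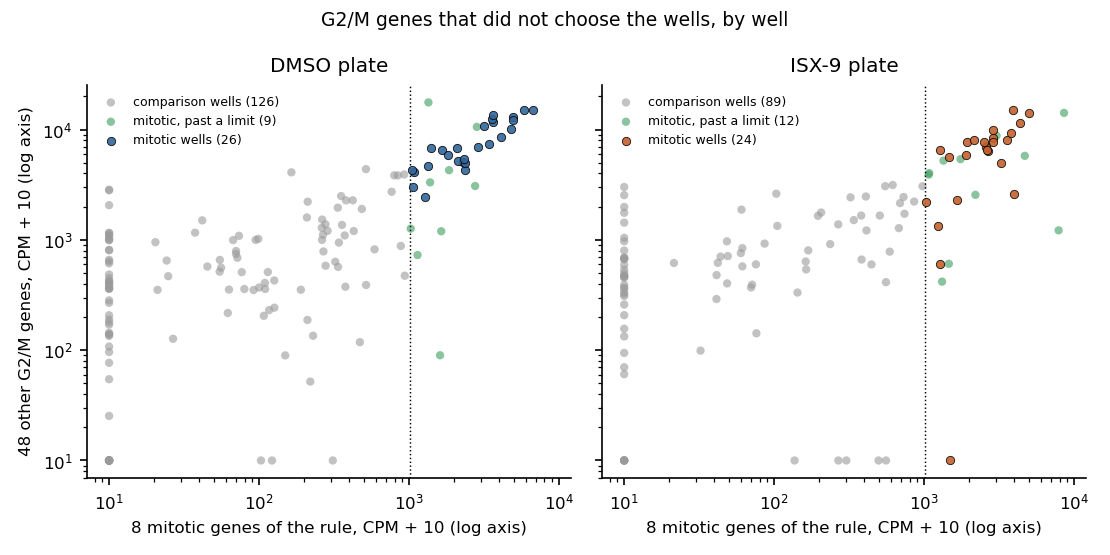
Each point is 1 well. The x axis is the summed CPM of the 8 mitotic genes of the rule and the y axis the summed CPM of 48 other G2/M genes, both with 10 CPM added and on log axes; the dotted line marks 1000 CPM. Mitotic wells reach 15002 CPM on the y axis in DMSO and 14995 CPM in ISX-9, and comparison wells at most 4373 and 3137 CPM.

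The 12 genes with the highest mean ratio over both plates are given by role, first those of the spindle and the kinetochore. Ckap2, a spindle microtubule protein, was read in 19 DMSO and 16 ISX-9 members at per-well medians of 238.5 and 280 CPM, and its highest wells had 1762 and 3303 CPM. Its pooled level was 439 CPM (95% Poisson interval 414 to 465) against 14.3 CPM in DMSO comparison wells and 408 CPM (380 to 437) against 36.5 CPM in ISX-9, log2 ratios of 4.52 and 3.31. Prc1, which bundles microtubules in the midzone during cytokinesis, stood at 210 against 15.2 CPM and 295 against 14.1 CPM, log2 ratios of 3.41 and 3.98. Nusap1 and Ckap2l, both spindle proteins, had log2 ratios of 3.63 and 3.52 and of 4.40 and 2.72. Cenpf and Cenpe, proteins of the kinetochore, had log2 ratios of 2.91 and 3.81 and of 3.13 and 3.30. Aspm, a spindle pole protein, was at 81.4 and 78.0 CPM in members and at 0.753 and 1.23 CPM in comparison wells. Each of these genes was thus far higher in mitotic wells of both plates.

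The other genes among the 12 were Ccna2, Cdca2, Iqgap3, Neil3 and Sgol2, and Neil3 had the highest mean of all, 4.19. Ccna2, the cyclin of S and G2 phase, was read in 25 of 26 DMSO members and 18 of 24 ISX-9 members, and its log2 ratios were 3.60 and 3.02. Neil3, a DNA glycosylase, was at 328 CPM in DMSO members and 3.01 CPM in DMSO comparison wells, and at 186 against 18.7 CPM in ISX-9. Sgol2, a shugoshin that protects cohesin at the centromere, had log2 ratios of 3.93 and 2.50. Cdca2, which brings a phosphatase to chromatin at mitotic exit, had 3.11 and 3.43, and Iqgap3, a scaffold protein, 3.37 and 3.39. Detection in single wells was partial: after thinning every well to 2000 reads, Ckap2 was read in 38.5% and 37.5% of members and in 2.38% and 2.25% of comparison wells.

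Promoters of these genes are shown because genes of this phase are known to share 2 short elements, the cell cycle genes homology region (CHR) and the CCAAT box. RefSeq promoters (GRCm38.p6, 250 bases before to 50 after the start, first entry per gene, matched by symbol) were found for 37 of the 45 genes. The letters TTTGAA (CHR) on either strand were in 27 of the 37 (73.0%), against 18.1% of 27018 promoters of the same length and 11.5% of those of the genes entered. CCAAT on either strand was in 27 (73.0%), against 37.9% and 38.7%. Both were in 23 (62.2%), against 7.12% and 4.89%. Of 28 S phase genes with a promoter, 4 (14.3%) held TTTGAA and 16 (57.1%) CCAAT, so the CHR letters were frequent in the G2/M list and not in the S phase list. A match of so few letters is a description and not a shown binding site.

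The promoters of the 4 genes of the G2/M list with the highest mean ratio are printed 5′ to 3′ on the gene's strand, with matches to either motif or its reverse complement in capitals. They lie at chr8:22185770-22186069 (minus strand, Ckap2), chr7:80294201-80294500 (plus strand, Prc1), chr2:119618048-119618347 (plus strand, Nusap1) and chr2:129297163-129297462 (minus strand, Ckap2l).
Ckap2 promoter: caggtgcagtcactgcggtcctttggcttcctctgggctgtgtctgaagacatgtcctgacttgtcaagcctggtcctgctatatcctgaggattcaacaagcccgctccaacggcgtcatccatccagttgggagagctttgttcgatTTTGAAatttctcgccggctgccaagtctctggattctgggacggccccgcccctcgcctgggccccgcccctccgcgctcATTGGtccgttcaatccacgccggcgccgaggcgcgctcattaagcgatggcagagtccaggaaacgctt
Prc1 promoter: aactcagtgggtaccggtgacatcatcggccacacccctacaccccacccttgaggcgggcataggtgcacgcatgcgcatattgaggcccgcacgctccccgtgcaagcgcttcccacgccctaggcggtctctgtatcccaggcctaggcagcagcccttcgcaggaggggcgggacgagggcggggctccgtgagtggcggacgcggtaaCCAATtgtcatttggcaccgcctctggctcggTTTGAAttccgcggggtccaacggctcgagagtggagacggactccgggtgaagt
Nusap1 promoter: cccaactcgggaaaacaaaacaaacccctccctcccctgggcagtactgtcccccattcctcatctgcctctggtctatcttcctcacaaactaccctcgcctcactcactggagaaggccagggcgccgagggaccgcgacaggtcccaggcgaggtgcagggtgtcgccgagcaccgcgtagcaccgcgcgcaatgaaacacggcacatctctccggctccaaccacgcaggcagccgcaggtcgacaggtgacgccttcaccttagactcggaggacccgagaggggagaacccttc
Ckap2l promoter: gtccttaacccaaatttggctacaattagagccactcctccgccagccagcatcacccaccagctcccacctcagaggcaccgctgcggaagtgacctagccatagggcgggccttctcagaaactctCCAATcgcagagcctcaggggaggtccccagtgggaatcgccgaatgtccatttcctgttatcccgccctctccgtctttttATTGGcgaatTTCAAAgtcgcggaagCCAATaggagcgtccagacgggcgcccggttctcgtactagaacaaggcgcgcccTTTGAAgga
Ckap2 and Prc1 each held 1 match to either motif, Ckap2l held 2 CHR and 3 CCAAT matches, and the Nusap1 window held neither set of letters.

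S phase genes were also higher in mitotic wells, with a difference in extent between the plates that was not tested. In DMSO 20 of 31 genes entered stood at least 2-fold higher (6.59% of all genes did) with a median log2 ratio of 1.13, and in ISX-9 5 of 31 (4.54% of all genes) with a median of 0.56. With the mean over wells in place of pooled reads the ISX-9 median was 1.28. Rrm2, the regulated subunit of ribonucleotide reductase, was at 524 against 92.4 CPM in DMSO and 522 against 221 CPM in ISX-9, and Tk1, thymidine kinase, at 201 against 26.9 CPM and 170 against 44.9 CPM. Members of both plates therefore had like levels of Rrm2, and ISX-9 comparison wells had the higher level of the 2 groups of comparison wells. Clspn, which signals stalled forks, had log2 ratios of 2.55 and 0.77. The summed S phase level was above the G2/M level in 4 of 26 DMSO and 3 of 24 ISX-9 members, and in 60 of 126 and 44 of 89 comparison wells. Most members thus held more reads of G2/M than of S phase genes. The rule chose members by a high level of mitotic genes, and the lists differ in size, with 48 G2/M and 32 S phase genes. This order therefore follows in part from the choice of wells and lists and is a description only.

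Genes of chromatin and tubulin followed. All 14 had a positive ratio in both plates, as had 2965 of all 8939 genes entered, and 5 stood at least 2-fold higher in both (2.14% of all genes did). Tubb5, a beta tubulin, was read in 26 of 26 DMSO and 21 of 24 ISX-9 members, with per-well lowest, median and highest levels of 1148, 1871 and 6441 CPM and of 0, 2596 and 7597 CPM, against medians of 179 and 403 CPM in comparison wells. Its log2 ratios were 2.26 and 1.44. Tuba1b, an alpha tubulin, had 2.47 and 1.40, and H2afx, the histone variant marked at DNA breaks, 1.99 and 2.36.

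Of 16 genes of cell cycle exit entered, 2 stood at least 2-fold higher and 3 lower in DMSO members and 1 higher and 2 lower in ISX-9 members, with medians of 0.14 and -0.35. The shares of all genes at least 2-fold higher were 6.59% in DMSO and 4.54% in ISX-9, and those at least 2-fold lower 5.17% and 6.65%. Cdkn2c, an inhibitor of the G1 kinases, was the gene of the list higher in both plates, at 23.7 against 2.26 CPM and 35.9 against 6.66 CPM. Cdkn1c, the inhibitor p57, was at 20.7 against 107 CPM in DMSO and 54.6 against 67.8 CPM in ISX-9. Cdkn1a, the inhibitor p21, was read in 20 of 26 and 16 of 24 members, with per-well medians of 109 and 166 CPM and highest wells of 2480 and 2708 CPM. Its log2 ratios were 0.20 and -0.46, so dividing wells did not stand 2-fold below the others for this gene.

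**Figure D2:**
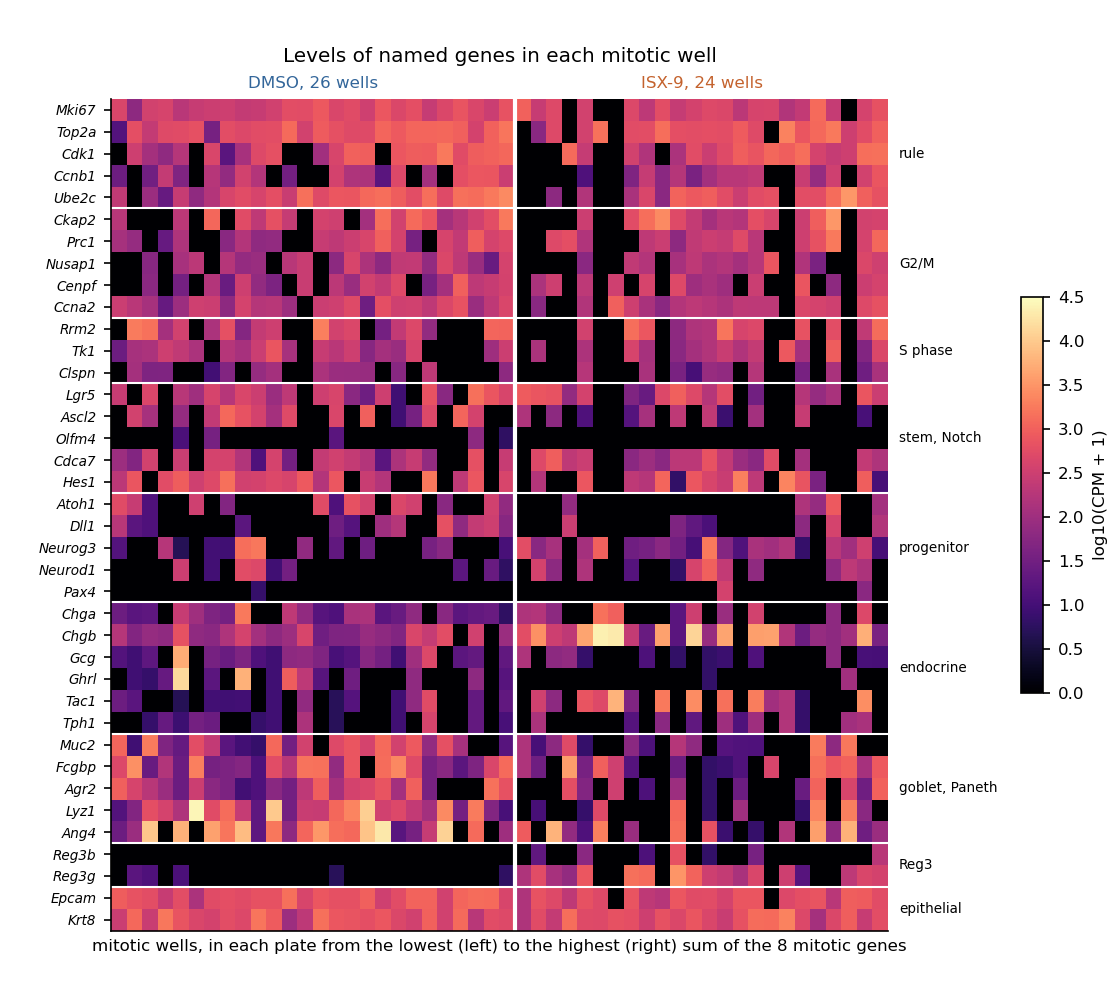
Each column is 1 mitotic well, ordered within its plate by the sum of the 8 mitotic genes, and each row a named gene; colour gives log10(CPM + 1). The rows of Mki67, Top2a and Epcam are filled in most columns of both plates, Ang4 and Lyz1 reach their highest levels in DMSO columns, and Chgb, Tac1 and Reg3g in ISX-9 columns.

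The members were epithelial. Epcam was read in 26 of 26 and 22 of 24 members, with per-well medians of 636 and 553 CPM against 468 and 582 CPM in comparison wells, and none of the 13 genes of epithelial identity stood 2-fold apart in either plate. The summed level of a list of immune and mesenchymal genes had a median of 0 CPM in members of both plates, with highest wells of 362 and 658 CPM. Comparison wells also had medians of 0 CPM, with highest wells of 436 and 1473 CPM. Of this list, Ptprc, the leukocyte antigen, had no read in any member or comparison well, which allows up to 1.13 CPM in DMSO members and 1.56 CPM in ISX-9 members (3 counts of the pooled reads). Dclk1, the defining gene of tuft cells, also had no read in any member, and comparison wells had 45.7 and 102.8 CPM, at least 40.5-fold and 65.9-fold higher. Of 8 tuft genes entered, 6 stood at least 2-fold lower in both plates (1.53% of all genes did), with medians of -1.34 and -3.07, the latter -3.42 with genes at 0 set to that limit. These pooled values rest on few comparison wells, since Dclk1 was read in 6 of 126 and 3 of 89. The summed tuft level per well had medians of 1454 CPM in DMSO members and 1447 CPM in DMSO comparison wells, and of 576 and 808 CPM in ISX-9. In DMSO it was at 1000 CPM or more in 16 of 26 members and 75 of 126 comparison wells. In ISX-9 this was so in 5 of 24 and 39 of 89. The typical DMSO member was thus not below the comparison wells for this sum. However, only 1 tuft gene had a mean of at least 10 CPM over the pooled members of both plates. The sum in members rests mainly on that gene and does not show a tuft programme. All 8 genes entered had a negative ratio in both plates.

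Stem cell genes were present in most members and stood above the comparison wells by less than 2-fold in most cases. Of 17 genes entered, 14 in DMSO and 13 in ISX-9 had a positive ratio, 13 of them in both plates, with medians of 0.60 and 0.31. Over all 8939 genes entered, 4951 in DMSO and 4455 in ISX-9 had a positive ratio, 2965 of them in both. The ISX-9 median was 0.04 when a mitotic sum of 2000 CPM was asked for. Lgr5, the receptor that marks crypt stem cells, was read in 21 of 26 and 18 of 24 members, with per-well medians of 207 and 152 CPM, highest wells of 1422 and 1007 CPM and at least 1 well at 0 in each plate. Its pooled level was 297 CPM (276 to 318) against 172 CPM (161 to 184) in DMSO and 361 CPM (334 to 388) against 153 CPM (142 to 166) in ISX-9, log2 ratios of 0.77 and 1.21. After thinning to 2000 reads Lgr5 was read in 53.8% and 37.5% of members and in 12.7% and 10.1% of comparison wells. The difference in the share of wells was thus present at equal depth.

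Other Wnt targets of the list showed the same order. Axin2, a feedback inhibitor of the pathway, was at 195 against 122 CPM and 280 against 141 CPM. Znrf3, a ligase that removes Wnt receptors, had log2 ratios of 1.90 and 0.55, and Cdca7, a Myc target, 0.95 and 0.90. Ascl2, the stem cell factor, was at 295 against 152 CPM in DMSO and at 107 against 63.4 CPM in ISX-9, so its level in members was lower in the ISX-9 plate. Olfm4, another stem cell gene, was read in 5 DMSO members and no ISX-9 member, at 7.16 CPM pooled over the DMSO members. A summed stem level of at least 2000 CPM was found in 25 of 26 DMSO and 22 of 24 ISX-9 members. It was also found in 74 of 126 and 50 of 89 comparison wells, so this level is not particular to members.

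Notch genes differed by member. Hes1, the target that represses Atoh1, was read in 20 of 26 and 16 of 24 members with per-well medians of 361 and 171 CPM, and stood at 527 against 276 CPM in DMSO and 479 against 309 CPM in ISX-9, log2 ratios of 0.92 and 0.62. Over the 12 Notch genes entered, 0 stood 2-fold higher in either plate, 1 and 2 stood 2-fold lower (5.17% and 6.65% of all genes did), and the medians were 0.20 and -0.40. Dll4, a Notch ligand, was at 36.9 against 28.8 CPM in DMSO and 9.36 against 42.2 CPM in ISX-9. Dll1, the ligand of early secretory cells, was read in 13 and 7 members. Lgr5 and Hes1 were both read in 16 of 26 and 14 of 24 members, and in 30 of 126 and 24 of 89 comparison wells, which were less deep. Lgr5 by itself was read in 21 and 18 members and Hes1 in 20 and 16, so these joint counts do not show a link between them.

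Atoh1, the secretory factor, was read in 14 of 26 DMSO members and 5 of 24 ISX-9 members, at pooled levels of 109 and 39.5 CPM against 144 and 44.9 CPM in comparison wells. A single well gave 64.5% of its reads in ISX-9 members. Of 12 secretory progenitor genes, 0 stood 2-fold lower in DMSO (5.17% of all genes) and 5 in ISX-9 (6.65%), with medians of -0.16 and -0.84. Gfi1, a factor of goblet and Paneth cells, was read in 7 DMSO members at 35.4 CPM pooled and in 1 ISX-9 member. Foxa1 was at 283 against 392 CPM and 157 against 352 CPM, and Foxa3 at 49.7 against 55.5 CPM and 15.6 against 52.8 CPM. The level of these genes in ISX-9 members was thus below both their DMSO counterparts and the comparison wells of their own plate.

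Neurog3, which the rule capped at 3000 CPM, was read in 13 of 26 DMSO and 21 of 24 ISX-9 members. It reached 100 CPM in 3 and 11 of them, and 1651 and 1720 CPM in the highest. That well gave 58.3% of the DMSO and 72.7% of the ISX-9 reads of the gene in members. At 2000 reads per well it was read in 15.4% and 20.8% of members and in 13.5% and 29.2% of comparison wells, so the reporter-positive gate was not matched by a Neurog3 read in most members at that depth.

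The relation of Neurog3 to mitosis was read over all kept wells, without the limits. In DMSO, 0 of 30 wells with Neurog3 at 3000 CPM or more had a mitotic sum of at least 1000 CPM (interval 0 to 11.6%). In wells with a Neurog3 read under that level it was 16 of 117 (13.7%, 8.02 to 21.3), and in wells without a read 19 of 153 (12.4%, 7.64 to 18.7). In ISX-9 the counts were 3 of 77 (3.90%, 0.811 to 10.97), 29 of 134 (21.6%, 15.0 to 29.6) and 4 of 79 (5.06%, 1.40 to 12.5). Both quantities are among those the rule used, so these counts are a description with no test, and the intervals show counting error only. Median reads were 17331, 39137 and 18683 in the DMSO groups and 28818, 30401 and 11841 in the ISX-9 groups. With the mitotic sum taken from wells thinned to 2000 reads, the counts were 1, 21 and 23 in DMSO and 5, 34 and 6 in ISX-9. The Neurog3 groups were kept as read at full depth, so they still depend on the depth of the wells.

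**Figure D3:**
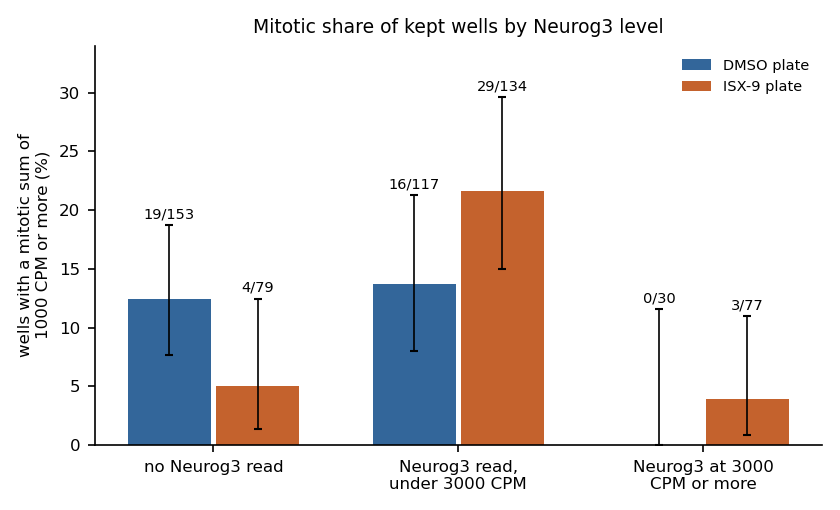
Bars give the percent of kept wells with a mitotic sum of at least 1000 CPM in 3 ranges of Neurog3, for each plate; error bars are 95% Clopper-Pearson intervals, and the numbers are wells over all wells of that range. The share is 0 of 30 in DMSO and 3 of 77 in ISX-9 at 3000 CPM or more, and highest, 29 of 134, in ISX-9 wells with a read under that level.

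Of 12 enteroendocrine progenitor genes entered, which act downstream of or beside Neurog3, 4 stood at least 2-fold lower in DMSO mitotic wells (5.17% of all genes did) and 5 in ISX-9 (6.65%), 2 of them in both plates (1.53%). None stood 2-fold higher, 3 had a positive ratio in DMSO, and the medians were -0.34 and -0.94. Neurod1, a direct target of Neurog3, was read in 9 of 26 and 12 of 24 members and stood at 87.4 against 391 CPM in DMSO and 182 against 366 CPM in ISX-9, log2 ratios of -2.10 and -0.99. Pax4, a factor of early endocrine cells, was read in 1 DMSO and 2 ISX-9 members, against 12 and 18 comparison wells. Insm1, which promotes endocrine differentiation, had log2 ratios of -1.08 and -0.71, and Runx1t1, a corepressor, -1.86 and -1.36. Neurog3 and Neurod1 were both at 100 CPM or more in 2 of 26 and 4 of 24 members.

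Mature endocrine genes stood lower still. Of 21 pan-endocrine genes, 12 in DMSO (5.17% of all genes) and 15 in ISX-9 (6.65%) stood at least 2-fold lower in mitotic wells, 9 of them in both plates (1.53%), with medians of -1.02 and -1.26. The DMSO median was -2.04 without the highest well of each gene. Chgb, a granin of secretory granules, had per-well lowest, median and highest levels of 0, 81.4 and 673 CPM in DMSO members and of 0, 282 and 23256 CPM in ISX-9 members. Pooled, it was at 161 CPM (146 to 177) against 4275 CPM (4220 to 4331) in DMSO and at 2310 CPM (2243 to 2379) against 6423 CPM (6345 to 6502) in ISX-9, log2 ratios of -4.69 and -1.47. Low levels of Chgb were read in nearly all wells, 24 of 26 and 23 of 24 members and 123 of 126 and 88 of 89 comparison wells, so a read by itself does not mark an endocrine cell. At 1000 CPM or more it was found in 0 of 26 DMSO and 10 of 24 ISX-9 members, and in 46 of 126 and 47 of 89 comparison wells. Scn3a, a sodium channel subunit, had log2 ratios of -2.85 and -1.18. Chga was at 128 against 204 CPM and 94.7 against 184 CPM.

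Hormone genes of the peptidergic cells were low in most members. Of 11 entered, 6 stood at least 2-fold lower in both plates (1.53% of all genes), with medians of -2.78 and -2.34. Cck, the gene of cholecystokinin, had per-well lowest, median and highest levels of 0, 24.5 and 245 CPM in DMSO members and of 0, 12.01 and 459 CPM in ISX-9 members, while comparison wells reached 74609 and 63063 CPM. Its log2 ratios were -6.86 and -4.91. Gcg, the gene of proglucagon, was read in 22 of 26 DMSO members at a median of 19.3 CPM, and 1 well with 5188 CPM gave 95.9% of its reads. In ISX-9 members its highest well had 147 CPM. Pyy, peptide YY, was at 3.77 against 562 CPM and 0.52 against 81.9 CPM, and Sct, secretin, at 10.5 against 89.97 CPM and 18.2 against 112 CPM. Gip, the gene of the incretin GIP, had a read in 1 DMSO member and 18 DMSO comparison wells and in no member or comparison well of ISX-9, and Nts, neurotensin, in no DMSO and 4 ISX-9 members.

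Exceptions to this were few. A peptidergic sum of at least 1000 CPM was found in 3 of 26 DMSO members, 2 of them at 5000 CPM or more. No ISX-9 member reached 1000 CPM, while 35 of 126 DMSO and 22 of 89 ISX-9 comparison wells did. In DMSO, a well of 268887 reads had a peptidergic sum of 21782 CPM and gave 83.5% of the Ghrl reads of members. Ghrl, the gene of ghrelin, stood at 1713 against 579 CPM in DMSO, with a per-well median of 7.10 CPM, and its log2 ratio of 1.56 turned to -0.38 without the highest well of each group. In ISX-9 members it was at 1.04 CPM, from 2 reads. Ghrl was at 1000 CPM or more in 2 of 26 DMSO and 0 of 24 ISX-9 members. Among comparison wells it was so in 8 of 126 and 4 of 89, so by this count DMSO members were not below their comparison wells. Doublets were not called, and more than 1 cell in the well of 268887 reads was not tested.

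Among enterochromaffin genes, Tac1, the gene of substance P, separated the plates. Its per-well lowest, median and highest levels were 0, 6.01 and 551 CPM in DMSO members and 0, 53.4 and 6254 CPM in ISX-9 members. Against comparison wells it was at 13.6 against 339 CPM in DMSO, a log2 ratio of -4.21, and at 664 against 674 CPM in ISX-9, a ratio of -0.02. At 1000 CPM or more it was found in 0 of 26 and 6 of 24 members, and in 15 of 126 and 26 of 89 comparison wells. The comparison wells thus also differed between the plates. Slc18a1, the vesicular transporter of monoamines, had log2 ratios of -0.95 and -1.38, and Ddc, the decarboxylase of serotonin synthesis, -0.70 and -1.38. Over the 7 enterochromaffin genes entered the medians were -0.70 and -1.05.

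Goblet and Paneth genes differed in level between members of the plates. The summed goblet level had a lowest, median and highest value of 142, 5700 and 31029 CPM in DMSO members and of 79.1, 587 and 38969 CPM in ISX-9 members, and the summed Paneth level of 101, 5502 and 45020 CPM and of 0, 686 and 26136 CPM. Comparison wells had goblet medians of 3211 and 1757 CPM and Paneth medians of 4186 and 705 CPM. Of 16 goblet genes, 2 in DMSO (5.17% of all genes) and 11 in ISX-9 (6.65%) stood at least 2-fold lower in mitotic than in comparison wells, with medians of -0.38 and -1.38. By the mean over wells these were 0.11 and -0.13, so the pooled values rest on how deep wells were weighted. Of 12 Paneth genes, 2 and 7 stood at least 2-fold lower, against the same shares of all genes, with medians of -0.30 and -1.13. In DMSO 2 stood 2-fold higher (6.59% of all genes did).

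Single genes gave the same order. Muc2, the gel-forming mucin that the rule capped, was read in 23 of 26 and 15 of 24 members with per-well medians of 180 and 11.97 CPM. Fcgbp, a protein of the mucus gel, was at 534 against 1015 CPM in DMSO and 122 against 528 CPM in ISX-9. Tff3, the trefoil factor of goblet cells, was read in 26 and 19 members with medians of 1957 and 196.5 CPM. Ang4, a ribonuclease of Paneth and goblet cells, had a lowest, median and highest level of 0, 1186 and 20028 CPM in DMSO members and of 0, 47.9 and 6158 CPM in ISX-9 members, and Lyz1, the Paneth lysozyme, of 10.2, 315.5 and 26566 CPM and of 0, 0 and 2230 CPM. Lyz1 was read in all 26 DMSO members and in 101 of 126 DMSO comparison wells, so a read of it does not by itself mark a Paneth cell. Reads of Ang4, Lyz1, Clca and Reg3 genes may be split with near-identical copies, since the sources used here do not give the counting rule.

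Limits of 5000 CPM for the goblet or Paneth sum and of 2000 CPM for the pan-endocrine sum, chosen after the values were seen, show how these programmes were spread over members. In DMSO, 21 of 26 members (80.8%, 60.6 to 93.4) passed the goblet or Paneth limit and 2 of 26 (7.69%, 0.946 to 25.1) the pan-endocrine limit. In ISX-9 these were 6 of 24 (interval 9.77 to 46.7%) and 11 of 24 (45.8%, 25.6 to 67.2). These intervals cover the drawing of wells from 1 plate, not the treatment, and the difference between the plates was not tested. At a pan-endocrine sum of at least 1000 CPM the counts were 5 of 26 and 11 of 24. Comparison wells had 72 of 126 (57.1%) and 33 of 89 (37.1%) past the goblet or Paneth limit and 51 of 126 (40.5%) and 51 of 89 (57.3%) past the pan-endocrine limit. Both limits were passed by 2 DMSO members, by no ISX-9 member and by 11 and 10 comparison wells. The stem sum was at 2000 CPM or more in 20 of the 21 DMSO goblet or Paneth members and in all 11 ISX-9 pan-endocrine members. Among comparison wells past the same limits it was so in 43 of 72 in DMSO and 24 of 51 in ISX-9.

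The depth of these wells differed. The 21 DMSO goblet or Paneth members had a median of 73890 reads, the 6 ISX-9 ones 15526 reads and the 11 ISX-9 pan-endocrine members 102396 reads, so pooled ISX-9 values are weighted to the last. Chgb gave 68.4% of the pan-endocrine reads in ISX-9 members and 10.99% in DMSO members. Without Chgb, 7 of 24 ISX-9 and 2 of 26 DMSO members reached 2000 CPM, and 11 and 4 reached 1000 CPM. The G2/M sum had a lowest, median and highest value of 3004, 6827 and 15002 CPM in the DMSO goblet or Paneth members. In the ISX-9 pan-endocrine members these were 0, 6576 and 11472 CPM. The highest pan-endocrine sums of ISX-9 members, 42553 and 26991 CPM, were in wells of 2021 and 3038 reads. Each of these wells had reads of only 1 gene of the rule, 3 and 5 reads, and their G2/M sums were 0 and 2304 CPM. Their place among dividing cells is thus weakly supported.

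**Figure D4:**
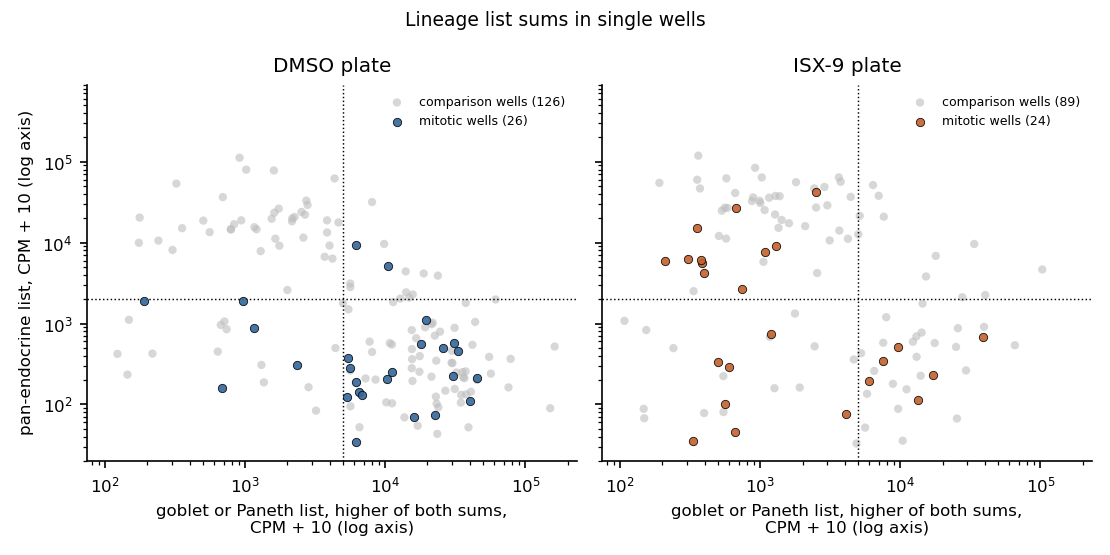
Each point is 1 well. The x axis is the higher of the goblet and Paneth list sums and the y axis the pan-endocrine list sum, both as CPM + 10 on log axes; dotted lines mark 5000 and 2000 CPM. In DMSO 21 of 26 mitotic wells lie right of the vertical line and 2 above the horizontal one, and in ISX-9 6 of 24 and 11 of 24.

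Between the plates, 761 of 8782 genes (8.67%) stood at least 2-fold higher and 428 (4.87%) at least 2-fold lower in ISX-9 than in DMSO mitotic wells. In comparison wells the same genes gave 567 higher (6.46%) and 125 lower (1.42%), with fewer wells and reads behind the values of members. Of 48 G2/M genes outside the rule, 0 stood 2-fold higher and 1 lower, with a median of -0.01 against 0.11 over all genes, and S phase genes had a median of 0.14. The median-of-ratios scaling shifted the log2 level of ISX-9 members by -0.10 and that of DMSO members by 0.01.

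Reg3g, a secreted antibacterial lectin, had the highest ratio of the genes named, a log2 ratio of 6.34. It was read in 5 DMSO members at up to 16.2 CPM and in 18 of 24 ISX-9 members at a per-well median of 230 CPM and up to 3183 CPM, pooled 3.77 against 705 CPM (668 to 744). In comparison wells it was at 12.4 and 399 CPM. Reg3b was read in 7 ISX-9 members and no DMSO member, at least 73.7-fold higher, and 75.6% of its reads came from 1 well. Fscn1, an actin-bundling protein, was at 175 CPM and read in 12 ISX-9 members, at least 155-fold above DMSO members, where it had no read. Lef1, a transcription factor of the Wnt pathway, was read in 9 ISX-9 members at 86.9 CPM and in no DMSO member, at least 76.9-fold. Lmo1, a transcriptional cofactor, was read in 12 at 72.8 CPM, at least 64.5-fold, and Crip2, a LIM domain protein, in 10 at 88.4 CPM, at least 78.3-fold. Pak3, a kinase of neurons, was at 85.8 CPM in ISX-9 members with 2 reads in DMSO members, and Tac1 completes the 8. The genes with reads in ISX-9 members only were therefore found in 7 to 12 of 24 wells.

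A list of genes that earlier results had named for ISX-9 over the whole plates was also read in members. It came from these same data, so its direction was given in advance and is no independent evidence. All 8 genes entered stood at least 2-fold higher in ISX-9 members. Their median was 2.97, or 4.71 with genes at 0 set to 3 counts. Of these genes, 5 had no read in DMSO members and entered through their ISX-9 level alone. In comparison wells 8 of 8 also stood at least 2-fold higher, with a median of 3.32. Over all genes 8.67% stood 2-fold higher in ISX-9 members and 6.46% in comparison wells. Igf2, a growth factor gene, was read in 1 DMSO and 16 ISX-9 members, with 63.6 CPM in the median ISX-9 member. Clu, the clusterin gene, was at 27.1 and 263 CPM and read in 6 and 13 members, and 6 of 7 genes of the injury and Reg3 list stood at least 2-fold higher, with a median of 1.98, and 4 of 7 did in comparison wells, with a median of 2.14.

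The genes furthest below their DMSO level were Ghrl, Gcg, St3gal1, Guca2a, Guca2b, Acta1, Mptx1 and Scgn. For Ghrl, Gcg, Mptx1 and Scgn the highest DMSO member of each gene gave 83.5%, 95.9%, 75.4% and 76.4% of its reads in that group. St3gal1, a sialyltransferase, was read in 7 DMSO members at 163 CPM and in no ISX-9 member, at least 104-fold lower. Guca2a, the gene of guanylin, was read in 21 DMSO and 5 ISX-9 members, at 383 against 19.8 CPM, and Guca2b, uroguanylin, in 17 and 2. Acta1 was read in 13 and 3. Of 12 Paneth genes 11 stood at least 2-fold lower in ISX-9 members (4.87% of all genes), with a median of -2.84 against -1.40 in comparison wells, and of 14 goblet genes 11 did, with -1.39 against -0.37. The pan-endocrine median was -0.18 and turned to 0.73 by the mean over wells and without the highest well of each gene, while Chgb itself was higher in ISX-9 members by a log2 ratio of 3.80, against 0.59 in comparison wells.

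**Figure D5:**
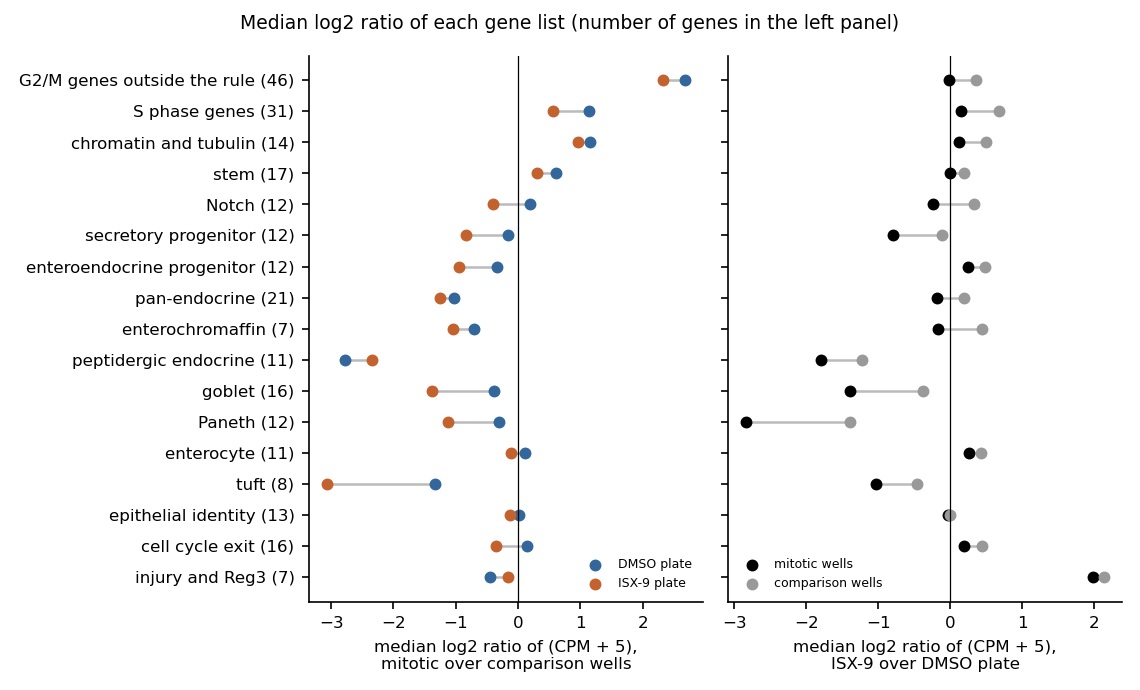
Points give the median log2 ratio of (CPM + 5) over the genes of each list, at left mitotic over comparison wells in each plate and at right ISX-9 over DMSO in mitotic and in comparison wells. The G2/M list is furthest right at left (2.68 and 2.33) and near 0 for mitotic wells at right (-0.01), where the Paneth list is lowest (-2.84).

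Beyond the lists, the 12 genes furthest below comparison wells in both plates also held Adh1, Kctd12, Slc25a35, Tm4sf4, Ypel5 and Sis. Sis, the sucrase-isomaltase of enterocytes, was at 40.7 against 296 CPM and 20.3 against 387 CPM, although the enterocyte list as a whole had medians of 0.12 and -0.11. Adh1, an alcohol dehydrogenase, was at 280 against 1371 CPM and 547 against 2774 CPM, and was read in 25 and 20 members. Tm4sf4, a tetraspanin-like membrane protein, had log2 ratios of -2.04 and -2.20, and Kctd12, an auxiliary subunit of GABA-B receptors, -1.20 and -4.54. In all, 191 genes (2.14%) stood at least 2-fold higher and 137 (1.53%) lower in mitotic wells of both plates.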

How the data were processed

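Single cells were measured by SORT-seq, 1 plate per treatment. The authors deposited raw counts per gene and well, as reads, per the labels' protocols and the values in the tables. BWA, with no version, and the human build hg19 are listed in the submitters' processing notes, while rows carry mouse symbols, so no coordinates were taken from the files. The counter and annotation are not given in the sources used here. Every column was used (0 left out).

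ERCC and mitochondrial rows were removed. Wells with at least 2000 reads and 500 genes were kept, and levels are CPM, pooled over wells (exact Poisson intervals) or per well. Genes entered had a mean of at least 10 CPM, and a gene was called past 2-fold. A row missing in 1 plate was set to 0 there. For detection at equal depth, wells were thinned to 2000 reads. No doublet caller was run, and an alternative dropped the 5% of wells with most reads. Of 352 genes in 22 lists, 9 had no row. Python 3.11.15, pandas 2.3.3 and scipy 1.17.1 were used, and the ratio step was tested on simulated data.

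The text names all 11 genes of the rule. Against comparison wells it names the 12 highest and 12 lowest mean ratios past 2-fold in both plates with a read in at least 25% of the wells of the higher class. Between plates it names the 8 highest and 8 lowest with at least 50 reads in members and the same share. Up to 5 genes per list with the largest absolute mean ratio and genes that define a role were added. Tff3 was named after its values were seen, as were the limits on list sums, gene pairs and Chgb or Tac1 levels. Ribosomal protein genes, predicted genes and Rn45s were not named by rank. Members and lists were chosen with earlier results of these data known.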

Additional observations from a re-analysis of the deposited data

Results flagged for a closer look

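Both plates' mitotic wells stood more than 2-fold from their comparison wells in opposite directions for 2 of the named genes. Ghrl had a log2 ratio of 1.56 in DMSO and -4.74 in ISX-9, and 1 well gave 83.5% of its reads in DMSO members. Lef1 had -1.16 in DMSO, where no member had a read, and 1.46 in ISX-9. Neither difference between the plates was tested, since each treatment has 1 plate.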

How the results depend on the processing

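No paired analysis was possible because each treatment has 1 plate. The ISX-9 share of mitotic wells was 12.1% at a mitotic sum of 500 CPM and 5.17% at 2000 CPM, and its other alternatives, and all of those for DMSO, stayed within the interval of the share. Several counts of genes moved by over 1.5 times. With a pseudocount of 20 CPM, 106 genes were higher and 39 lower in mitotic wells of both plates, and 308 were higher and 160 lower in ISX-9 members. By the mean over wells these were 370, 329, 1187 and 892. With no filter on level, 208 were lower in mitotic wells and 1218 higher in ISX-9 members. Without the top 5% of wells by reads, 299 were lower in mitotic wells, and 1142 were higher and 751 lower in ISX-9 members. Against all other kept wells, 275 were lower. The cause was not tested. Log2 ratios against comparison wells that turned were, by the mean over wells, Areg (0.42) and Slc25a35 (0.17) in DMSO and Fcgbp (0.0566), Reg4 (0.00440) and Snhg11 (0.32) in ISX-9, at a sum of 2000 CPM Ghrl (-1.33), Igf2 (-1.11) and Mptx1 (-1.87) in DMSO, and without the highest well Ghrl (-0.38) and Igf2 (-0.0539) in DMSO. Of 198 ratios of named genes past 2-fold, 172 to 196 stayed past it in the 4 settings tried. With at least 3 of the 8 mitotic genes asked for, an alternative added after the data were seen, the 4 counts were 195, 143, 770 and 430. Depth limits members to a floor of 1.13 CPM in DMSO and 1.56 CPM in ISX-9.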
